A study of Homo sapiens with 6 samples.

Results

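NEAT1, MALAT1, TUG1 and KCNQ1OT1 are long non-coding RNAs that are found in the nucleus. They were examined in KMS27, an established human line of malignant plasma cells, with and without overexpression of HA-TAZ. The 4 genes were taken by symbol out of 63677 genes, and they hold 17 of the 215170 transcripts in the deposited table. A mean of at least 1 TPM over the libraries was reached by 12 of these 17 transcripts. TPM is an abundance corrected for transcript length and stated as a share of a library.

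Total RNA depleted of ribosomal RNA was sequenced in 6 libraries, 3 labelled wild type and 3 labelled HA-TAZ. TAZ is a coactivator of transcription held back by Hippo signalling, it is encoded by WWTR1, and HA is an epitope tag. The promoter behind HA-TAZ, the number of clones, and whether the wild type cells carry a construct are not given in the labels, although the titles of the wild type samples contain HA. The columns of values for the wild type group carry a name that is in no label and were assigned by elimination, so these libraries carry the letters a, b and c here (control a and so on). The labels do not say that the libraries of a group came from separate cultures, so p-values measure only the spread between these libraries, which may be technical. In RNA from bulk cells, fewer cells with a transcript and less of it per cell cannot be told apart.

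MALAT1 is an abundant RNA of nuclear speckles, the domains in which splicing factors gather. NEAT1 is the architectural RNA of paraspeckles: its long form is needed to build these bodies with proteins such as NONO and SFPQ, while its short form is polyadenylated. The long form of NEAT1 and MALAT1 have no poly(A) tail, and their ends are made by RNase P and protected by an RNA triple helix. TUG1 is a broadly expressed RNA known to bind Polycomb proteins. KCNQ1OT1 is a very long, unspliced antisense RNA that starts inside KCNQ1, is made from the paternal chromosome and silences neighbouring imprinted genes such as CDKN1C.

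The ends of MALAT1 and of the long NEAT1 transcript are shown because both RNAs end in this structure in place of a poly(A) tail, which libraries of total RNA do not select for. They were read from GENCODE release 29 transcripts with the same identifier and version as in the deposited table, ENST00000534336.1 for MALAT1 and ENST00000501122.2 for NEAT1. Capitals mark the 2 U-rich motifs and the A-rich tract of the triple helix, written with T for U.
MALAT1 3′ end, bases 8262 to 8355 of 8708: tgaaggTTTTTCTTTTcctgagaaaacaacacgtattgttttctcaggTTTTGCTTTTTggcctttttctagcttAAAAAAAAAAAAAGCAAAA
NEAT1 3′ end, bases 22650 to 22743 of 22743: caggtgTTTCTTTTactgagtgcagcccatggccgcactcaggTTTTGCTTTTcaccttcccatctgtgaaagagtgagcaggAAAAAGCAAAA
MALAT1 downstream, bases 8356 to 8415, the start of the tRNA-like mascRNA: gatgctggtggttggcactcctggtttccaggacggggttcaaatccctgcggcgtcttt
In both RNAs the A-rich tract ended in the same letters, GCAAAA, and the second U-rich motif held TTTTGCTTTT. The annotated NEAT1 transcript stopped at the tract, whereas the annotated MALAT1 transcript ran 353 bases past it. A TPM value for ENST00000534336.1 therefore also counts reads from the downstream stretch.

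WWTR1 was at 293 to 306 TPM in the HA-TAZ libraries and at 1.69 to 2.69 TPM in the controls. Of 9 plasma cell markers, IRF4 ran from 157 to 269.5 TPM and XBP1 from 132 to 169 TPM. By limma SLAMF7 rose (0.95 on the log2 scale) and CD38 fell (-0.61) among these 9, with a list median of -0.02. Of all genes 4.67% rose and 2.63% fell. In TPM as deposited 1 of the 9 rose and 4 fell, with a median of -0.31, beside 1.15% and 13.5% of all genes. Of 15 markers of other cell types, 11 had a mean below 1 TPM, KRT8 had the highest mean at 3.08 TPM, and CD3D, picked after its values were seen, was listed at 0 in 4 of 6 libraries. The 4 other markers that were tested had a median of -0.12. By limma 0 of these 4 passed at an adjusted p of 0.05, beside 7.29% of all genes. At an unadjusted p of 0.05, 0 of 4 passed, beside 30.7% of all genes. The 7SL and 7SK RNAs with their copies took 26.8% to 28.3% of TPM in the HA-TAZ libraries and 21.7% to 26.2% in the controls, without overlap. Their part in the results was not tested beyond the scalings given here. TPM was divided by a median-of-ratios factor per library to give scaled TPM. The log2 fold change of the median gene was -0.03 in scaled TPM and -0.27 in TPM as deposited, so directions of small changes depend on the scaling.

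The order of levels was the same in all 6 libraries, MALAT1 above NEAT1 above TUG1 above KCNQ1OT1, and the ranges of neighbours in this order did not meet. By mean TPM, which is corrected for length, MALAT1 ranked 42 among all genes and 4 among long non-coding genes. NEAT1 ranked 1187 and 28, TUG1 3832 and 78, and KCNQ1OT1 15399 and 1353. Estimated counts, which are not corrected for length, fell in another order: in the authors' deposited table the estimated counts of a typical library were 745577 for MALAT1, 63391 for NEAT1, 17909 for KCNQ1OT1 and 5784 for TUG1. These are 1.41%, 0.120%, 0.0339% and 0.0110% of its estimated counts.

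Between the groups, none of the 4 genes passed limma on scaled TPM at a Benjamini-Hochberg adjusted p of 0.05, 0 of 4 beside 7.29% of the 22651 genes tested (4.67% rose and 2.63% fell). At an unadjusted p of 0.05, 2 of 4 passed, NEAT1 and KCNQ1OT1, beside 30.7% of all genes. KCNQ1OT1 was the lowest relative to wild type, with 0.683 of the control mean, and NEAT1 was the highest. The groups overlapped for MALAT1 and TUG1, both in scaled TPM and as deposited.

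MALAT1 (ENSG00000251562, chromosome 11) was at 1617, 1794 and 1535 TPM in HA-TAZ 1, 2 and 3, and at 2158, 1936 and 1712 TPM in control a, b and c. In scaled TPM the values were 1868, 1856 and 1725 against 1785, 1775 and 1620. The groups overlapped on both scales, with control a the highest as deposited. Scaled means were 1816 ± 79.4 and 1726 ± 92.8 (SD, n = 3 each). On the log2 scale the difference was 0.07 (SE 0.07), and its 95% interval ran from -0.10 to 0.25, a fold of 0.931 to 1.19 (limma, Benjamini-Hochberg adjusted p = 0.521). It was 0.027 without control c and 0.12 without HA-TAZ 3. Its sign flipped to -0.0020 with factors from protein-coding genes, -0.17 without the 7SL and 7SK RNAs and -0.23 as deposited.

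NEAT1 (ENSG00000245532, chromosome 11) was at 69.1, 78.6 and 73.7 TPM in HA-TAZ 1, 2 and 3, and at 78.2, 80.9 and 79.5 TPM in control a, b and c. In scaled TPM it was at 79.8, 81.3 and 82.8 against 64.7, 74.2 and 75.1. As deposited the groups overlapped, while in scaled TPM each HA-TAZ library lay above each control, as for 20.2% of genes. Scaled means were 81.3 ± 1.498 and 71.3 ± 5.77 (SD, n = 3 each), with control a the lowest. On the log2 scale the difference was 0.19 (SE 0.07) with a 95% interval of 0.02 to 0.35, a fold of 1.02 to 1.28, and it did not pass (limma, Benjamini-Hochberg adjusted p = 0.125). Without control a the difference was 0.12. The sign was positive with factors from protein-coding genes (0.11) and flipped to -0.05 without the 7SL and 7SK RNAs and -0.11 as deposited. Relative to the median gene, NEAT1 was 0.21, 0.20, 0.18 and 0.16 higher on the log2 scale under scaled TPM, protein-coding factors, TPM without 7SL and 7SK, and TPM as deposited. Of its 63391 estimated counts in the authors' deposited table, 60120 were of the long transcript ENST00000501122.2. That transcript had a natural log effect of 0.044 there (q = 0.727). In TPM it held on average 49.2% of the gene in HA-TAZ libraries and 55.1% in controls. A shorter transcript, ENST00000601801.1, with 2008 estimated counts, had an effect of 0.359 (q = 0.328).

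TUG1 (ENSG00000253352, chromosome 22) was at 24.95, 29.6 and 22.97 TPM in HA-TAZ 1, 2 and 3, and at 36.2, 30.9 and 29.2 TPM in control a, b and c. In scaled TPM it was at 28.8, 30.6 and 25.8 against 29.98, 28.3 and 27.7, so the controls lay within the range of the HA-TAZ libraries. Scaled means were 28.4 ± 2.41 and 28.7 ± 1.20 (SD, n = 3 each). On the log2 scale the difference was -0.01 (SE 0.07) with a 95% interval of -0.20 to 0.17, a fold of 0.872 to 1.12 (limma, Benjamini-Hochberg adjusted p = 0.914). Relative to the median gene TUG1 was between -0.03 and 0.01 under the 4 scalings, while its log2 fold change itself was -0.01, -0.09, -0.25 and -0.31.

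KCNQ1OT1 (ENSG00000269821, chromosome 11) is represented by 1 transcript, ENST00000597346.1, a single exon of 91667 bases. Its deposited values were 1.81, 2.39 and 2.36 TPM in HA-TAZ 1, 2 and 3, and at 4.52, 3.61 and 3.71 TPM in control a, b and c. In scaled TPM it was at 2.09, 2.47 and 2.65 against 3.74, 3.31 and 3.51. Each HA-TAZ library lay below each control on both scales. That pattern was seen for 18.3% of genes in scaled TPM and for 43.6% as deposited.

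Scaled means of KCNQ1OT1 were 2.40 ± 0.288 and 3.52 ± 0.218 (SD, n = 3 each). The log2 fold change on the log2(scaled TPM + 1) scale was -0.41 (SE 0.10) with a 95% interval of -0.67 to -0.16, and it did not pass (limma, Benjamini-Hochberg adjusted p = 0.0665). It passed in TPM as deposited, at -0.64 (limma adjusted p = 0.0376, where 13.5% of all genes fell), and without the 7SL and 7SK RNAs, at -0.64 (limma adjusted p = 0.0350). The adjusted p ran from 0.0350 to 0.172 over 12 alternatives. The sign was negative in all 12, and relative to the median gene KCNQ1OT1 was at -0.39, -0.38, -0.40 and -0.36 under the 4 scalings.

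The authors' deposited table, which works on transcripts and estimated counts, gave KCNQ1OT1 a natural log effect of -0.364 (SE 0.0776), a fold of 0.695, and q = 2.40e-04. The authors' deposited table has statistics for 13 of the 17 transcripts, and KCNQ1OT1 was the 1 with a q under 0.05, beside 5.68% of all transcripts and 1.6% with a negative effect. Because of its length, its estimated counts of 17909 in the authors' deposited table correspond to a counting error of 0.747%, which is below its spread between libraries.

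**Figure D1:**
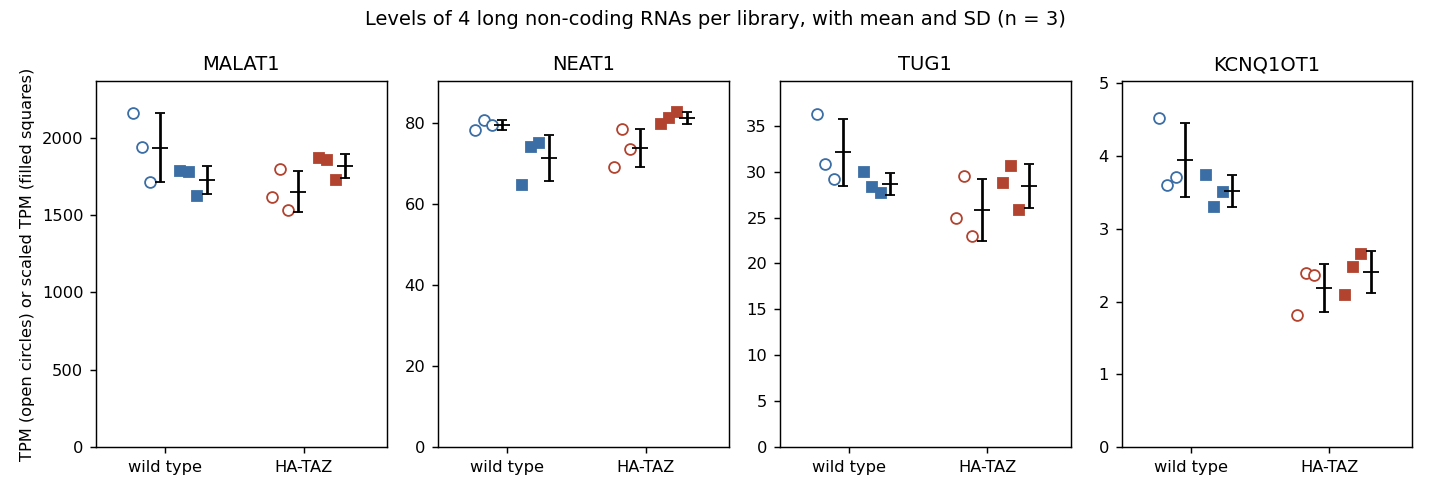
Levels of the 4 RNAs in each library, in TPM as deposited (open circles) and scaled TPM (filled squares), with mean and SD of 3 libraries per group. KCNQ1OT1 is the RNA whose groups stand apart on both scales, at 2.09 to 2.65 against 3.31 to 3.74 scaled TPM.

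**Figure D2:**
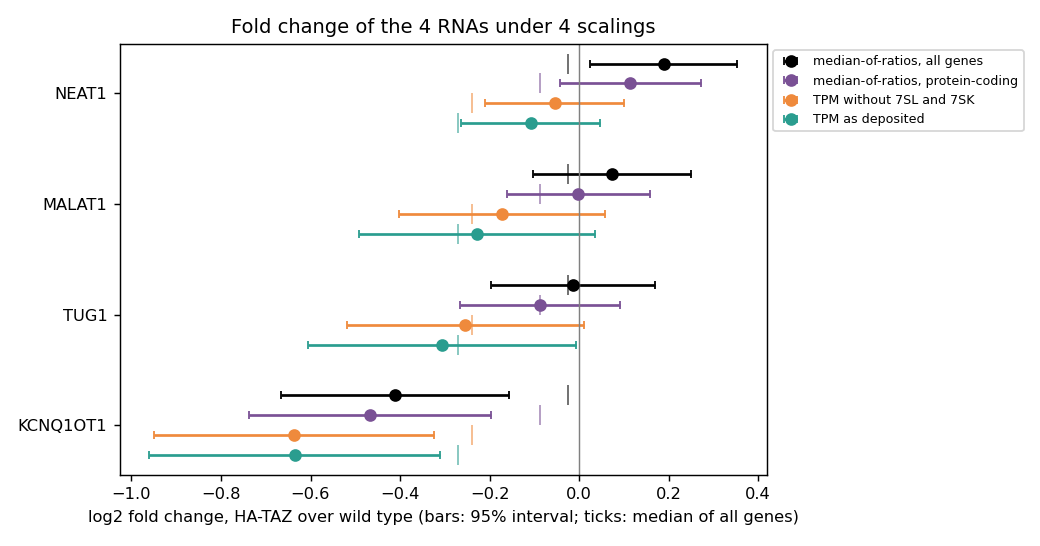
Log2 fold change of each RNA, HA-TAZ over wild type, under 4 scalings, with the 95% interval of limma as bars and the median of all genes as ticks. NEAT1 ran from 0.19 to -0.11 and MALAT1 from 0.07 to -0.23, so both flip sign with the scaling, while KCNQ1OT1 ran from -0.41 to -0.64.

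Ratios between the RNAs within a library do not depend on the scaling. NEAT1 over KCNQ1OT1 was 38.2, 32.9 and 31.2 in HA-TAZ 1, 2 and 3, and 17.3, 22.4 and 21.4 in control a, b and c. MALAT1 over KCNQ1OT1 was 894, 751 and 650 against 477, 537 and 461. TUG1 over KCNQ1OT1 was 13.8, 12.4 and 9.73 against 8.01, 8.57 and 7.88. All 3 ratios were higher in each HA-TAZ library than in each control, by 1.68-fold, 1.55-fold and 1.45-fold, and all 3 share KCNQ1OT1. For each of them p was 0.1 in an exact permutation test, two-sided, the smallest that 3 against 3 libraries allow, and 0.2 after Benjamini-Hochberg adjustment over 6 pairs, so this design cannot reach 0.05.

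The ratios among the other RNAs overlapped between the groups. NEAT1 over MALAT1 differed by 0.12 on the log2 scale (exact permutation p = 0.4) and NEAT1 over TUG1 by 0.21 (exact permutation p = 0.2). Without control a these differences were 0.025 and 0.10, and without HA-TAZ 3 they were 0.068 and 0.13. MALAT1 over TUG1 was 64.8, 60.7 and 66.8 against 59.5, 62.7 and 58.6, a log2 difference of 0.09 (exact permutation p = 0.2). KCNQ1OT1 was thus the RNA whose proportion to the other 3 separated the groups, and a ratio does not tell which of its RNAs moved.

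**Figure D3:**
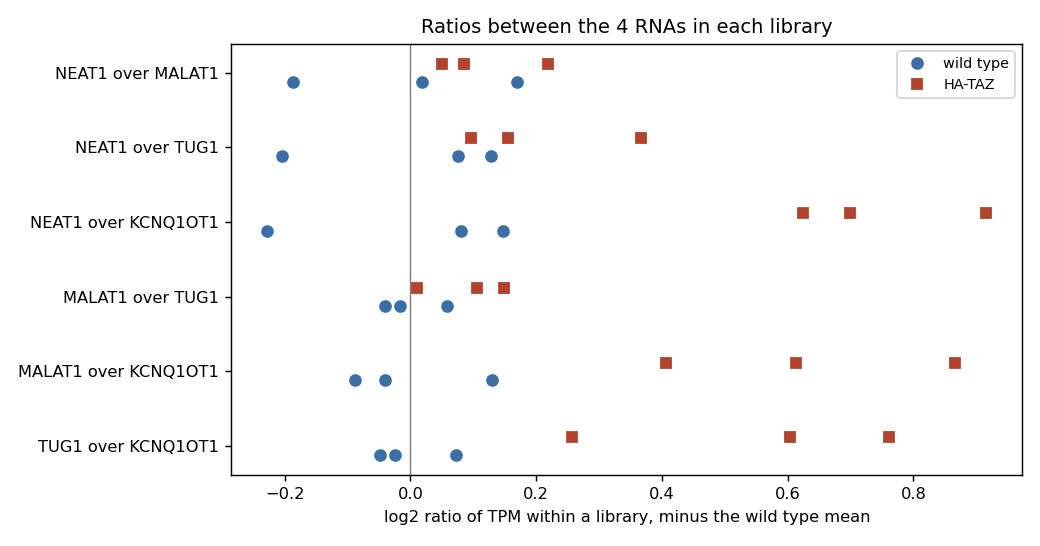
Log2 ratio of TPM between pairs of the 4 RNAs in each library, minus the wild type mean, for 3 wild type libraries (circles) and 3 HA-TAZ libraries (squares). The 3 ratios over KCNQ1OT1 separate the groups, with log2 differences of 0.75, 0.63 and 0.54, and the other 3 overlap.

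At the level of transcripts, 0 of 12 passed limma at a Benjamini-Hochberg adjusted p of 0.05, beside 0.534% of 57448 transcripts, and 2 of 12 had an unadjusted p under 0.05, beside 24.1%. These were KCNQ1OT1 and ENST00000508832.1 of MALAT1. Transcripts of 1 gene share sequence, so how reads are split among them is an estimate.

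The full-length MALAT1 transcript ENST00000534336.1 held 58.9%, 58.3% and 59.4% of the gene's TPM in HA-TAZ 1, 2 and 3, and 59.9%, 60.8% and 59.5% in control a, b and c. The HA-TAZ libraries lay below the controls without overlap (exact permutation p = 0.1), by 1.21 percentage points between the means. Its log2 fold change was 0.04 in scaled TPM and flipped to -0.03, -0.20 and -0.26 under protein-coding factors, without 7SL and 7SK, and as deposited. ENST00000508832.1, whose deposited values imply an effective length of 882 bases, was at 316, 318 and 291 TPM against 286, 190 and 307 TPM. It held 19.6%, 17.7% and 18.96% of MALAT1 against 13.3%, 9.84% and 17.9%, with control c inside the range of the HA-TAZ libraries. In scaled TPM its groups did not overlap, as for 17% of transcripts in this direction. Its log2 fold change was 0.57 (SE 0.18), and it did not pass (limma, Benjamini-Hochberg adjusted p = 0.144), and the authors' deposited table gave a natural log effect of 0.408 with q = 0.0916. ENST00000544868.1 held 22.4% ± 1.39 against 26.3% ± 3.45 (SD, n = 3 each), and differed by -0.15 on the log2 scale in scaled TPM.

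The long NEAT1 transcript ENST00000501122.2, of 22743 bases, was at 32.5, 40.3 and 36.3 TPM in HA-TAZ 1, 2 and 3, and at 48.8, 39.9 and 42.7 TPM in control a, b and c. It held 47.1%, 51.3% and 49.2% of NEAT1 against 62.3%, 49.3% and 53.7%. The groups overlapped, and control a was the highest. Its log2 fold change was 0.03 in scaled TPM, within an interval of -0.16 to 0.23, and its sign was negative under the other 3 scalings (-0.04, -0.21 and -0.26).

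The shorter NEAT1 transcripts ENST00000601801.1 and ENST00000499732.1 have implied effective lengths of 1339 and 1648 bases. Neither was matched to the polyadenylated short form, so these values do not give the balance of the short and long forms. ENST00000601801.1 was at 26.3, 24.5 and 26.1 TPM against 16.7, 26.5 and 25.4 TPM, so control a stood lower than the other 5 libraries. Its log2 fold change was 0.47 (SE 0.22), and it did not pass (limma, Benjamini-Hochberg adjusted p = 0.253). Without control a it was 0.22. ENST00000499732.1 had a log2 fold change of 0.15, which flipped to -0.08 without 7SL and 7SK and -0.13 as deposited. The 100-base entry ENST00000384994.1 of NEAT1 was listed at 0 in all 6 libraries.

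TUG1 was spread over 5 transcripts with a mean of at least 1 TPM. ENST00000519077.3 held 34.7% ± 0.679 of TUG1 in HA-TAZ libraries and 34.6% ± 1.69 in controls (SD, n = 3 each), and differed by -0.01 on the log2 scale in scaled TPM. ENST00000602393.1 held 24.4% ± 0.881 against 27.5% ± 2.77, with -0.17. ENST00000540687.1 held 18.02%, 17.98% and 17.6% against 13.1%, 16.6% and 16.04%, without overlap, and its log2 fold change was 0.18 in scaled TPM, -0.02 without 7SL and 7SK and -0.06 as deposited. ENST00000569149.1 was at 0.0030 and ENST00000566220.1 at 0.06, both with a negative sign as deposited (-0.25 and -0.09). Over the 11 transcript shares of MALAT1, NEAT1 and TUG1, the smallest exact permutation p was 0.1 and the smallest value after Benjamini-Hochberg adjustment was 0.367. How often the shares of other transcripts separate the groups was not counted. For levels in scaled TPM, an unlike measure, 20.2% of all genes lay higher and 18.3% lower without overlap.

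**Figure D4:**
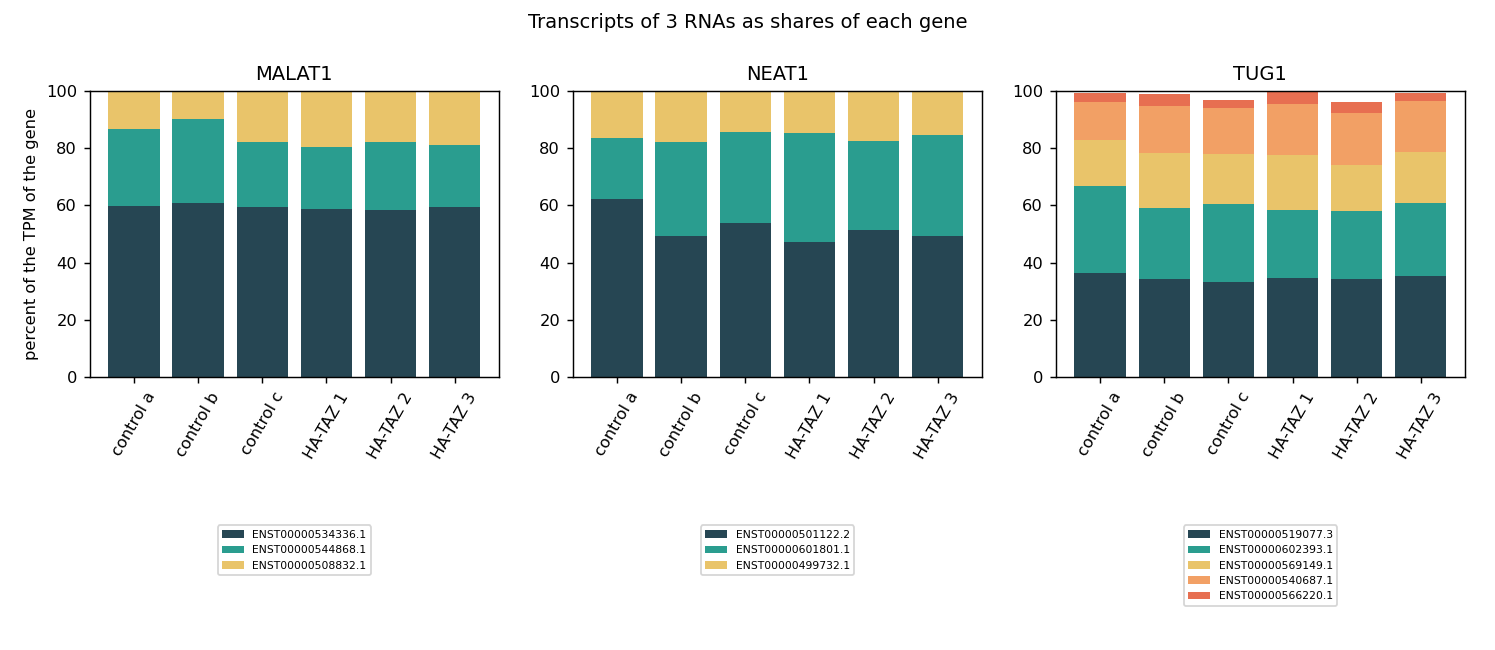
Percent of each gene's TPM held by its transcripts with a mean of at least 1 TPM in 3 wild type (control) and 3 HA-TAZ libraries. The full-length MALAT1 transcript holds 59.5% to 60.8% in wild type and 58.3% to 59.4% with HA-TAZ, the long NEAT1 transcript runs from 47.1% to 62.3%, and TUG1 bars end below 100% where rarer transcripts hold the rest.

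KCNQ1, the potassium channel gene that contains KCNQ1OT1 on the opposite strand, was at 8.04, 7.77 and 8.055 TPM in HA-TAZ 1, 2 and 3, and at 12.9, 11.6 and 12.5 TPM in control a, b and c. Each HA-TAZ library lay below each control, as for 43.6% of genes as deposited, and the same held in scaled TPM, as for 18.3%. Its log2 fold change was -0.30 in scaled TPM (limma, Benjamini-Hochberg adjusted p = 0.0760) and -0.57 as deposited (limma adjusted p = 0.0246). Of its 3 transcripts with a mean of at least 1 TPM, ENST00000335475.5 was at -0.36, ENST00000380776.4 at -0.78 and ENST00000155840.5 at 0.07, and none passed. The sources used here do not give the strand setting of the quantification, so reads of KCNQ1 introns or exons and of KCNQ1OT1 cannot be told apart with certainty.

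CDKN1C, a cyclin-dependent kinase inhibitor and imprinted target of KCNQ1OT1, was below the filter at 0.674 ± 0.160 TPM in HA-TAZ libraries and 0.354 ± 0.146 TPM in controls (SD, n = 3 each). Among the other domain genes below the filter, TSPAN32 was lower, at 0.123 against 0.255 TPM. ASCL2 was at 0, and the groups of PHLDA2, SLC22A18AS and TRPM5 overlapped. A link between these genes and KCNQ1OT1 was not tested. Of 13 genes of the KCNQ1 domain, 7 were tested and 0 passed limma, with 4 higher and 1 lower at an unadjusted p of 0.05, a threshold that 30.7% of all genes passed. Their median log2 fold change was 0.22, which flipped to -0.08 as deposited, beside -0.03 and -0.27 for all genes. NAP1L4, a histone chaperone, was at 0.22 (limma adjusted p = 0.0597), and CD81, a tetraspanin, was at 0.40 (limma adjusted p = 0.102).

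NEAT1 and MALAT1 lie close together on chromosome 11. Of 16 genes around them, 14 were tested and 2 rose in scaled TPM, beside 4.67% of all genes and 875 of 11666 protein-coding genes. FRMD8, which binds iRhom proteins, was at 15.3, 14.6 and 16.8 scaled TPM against 10.97, 10.3 and 12.1 (log2 fold change 0.45, limma adjusted p = 0.0405), and it did not pass as deposited (0.17, limma adjusted p = 0.199). SSSCA1 was at 44.4, 36.3 and 38.2 against 21.6, 25.3 and 27.7 scaled TPM (0.66, limma adjusted p = 0.0369) and passed as deposited too (0.36, limma adjusted p = 0.0375, where 1.15% of all genes rose). RELA, the NF-kappaB subunit, was at 0.09 and POLA2, a subunit of DNA polymerase alpha, at 0.09, and neither passed. The list median was 0.15 and flipped to -0.11 as deposited. As deposited 1 of the 14 rose and 1 fell, beside 1.15% and 13.5% of all genes. Neither FRMD8 nor SSSCA1 passed in any of the 6 fits that left out 1 library.

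Of 10 genes around TUG1, 7 were tested and 0 passed limma, with 2 higher and 1 lower at an unadjusted p of 0.05, beside 30.7% of all genes. Their median was 0.05 and flipped to -0.21 as deposited. MORC2, a chromatin silencing ATPase that starts beside TUG1, was at 0.29 (limma adjusted p = 0.0659), SMTN, a smooth muscle cytoskeletal protein, at -0.06, and PIK3IP1, an inhibitor of PI3 kinase, at 0.11.

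Of 34 paraspeckle proteins, 33 were tested, 3 rose and 0 fell, beside 4.67% and 2.63% of all genes, with a median of 0.04 (-0.25 as deposited). As deposited 1 rose and 2 fell, beside 1.15% and 13.5% of all genes. Among 11666 protein-coding genes tested, 875 rose and 254 fell in scaled TPM. NONO, SFPQ and PSPC1, which bind NEAT1 and were picked for naming after their values were seen, were at -0.22, -0.08 and 0.04, and none passed. The 3 that rose were RUNX3, a transcription factor, at 0.55 (limma adjusted p = 0.0308), SMARCA4, a chromatin remodelling ATPase, at 0.23 (limma adjusted p = 0.0394), and FAM98A at 0.27 (limma adjusted p = 0.0465). As deposited the log2 fold changes were 0.27 for RUNX3 (limma adjusted p = 0.0482), -0.07 for SMARCA4 and -0.03 for FAM98A. The most abundant members, HNRNPA1 and HNRNPH1, which regulate splicing, were at 0.01 and 0.02, and flipped to -0.29 and -0.28 as deposited.

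Of 27 nuclear speckle proteins, all were tested, 3 rose and 0 fell, beside 4.67% and 2.63% of all genes, with a median of 0.04 (-0.26 as deposited). As deposited 0 rose and 2 fell, beside 1.15% and 13.5% of all genes. In scaled TPM 875 of 11666 protein-coding genes rose and 254 fell. SRSF9, a splicing factor, was at 0.25 (limma adjusted p = 0.0416), RNPS1, a protein of exon junctions, at 0.19 (limma adjusted p = 0.0465), and U2AF2, which recognises the 3′ splice site, at 0.30 (limma adjusted p = 0.0469). As deposited these 3 were at -0.05, -0.10 and 0.01, and none passed. SRRM2, a scaffold of speckles, was at -0.13, and SRSF1 was at 0.17, without passing.

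Of 24 proteins that form or guard RNA ends, 23 were tested, 4 rose and 0 fell, beside 4.67% and 2.63% of all genes, with a median of 0.13 (-0.16 as deposited). As deposited 0 rose and 1 fell, beside 1.15% and 13.5% of all genes. Protein-coding genes that rose in scaled TPM numbered 875 of 11666, and 254 fell. POP4, POP7 and RPP30, subunits of RNase P, which cuts the ends of MALAT1 and NEAT1, were at 0.41, 0.46 and 0.28 (limma adjusted p = 0.0398, 0.0498 and 0.0494). The other subunits of RNase P that were tested did not pass, with log2 fold changes from 0.01 to 0.43. PABPN1, the nuclear poly(A) binding protein, was at 0.20 (limma adjusted p = 0.0431), and SKIV2L2, a helicase of the nuclear exosome, at 0.08. As deposited, POP4, POP7 and RPP30 were at 0.12, 0.17 and -0.01 and PABPN1 at -0.10, and none passed. None of the paraspeckle, speckle and RNA end genes that rose passed in any of the 6 fits that left out 1 library.

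**Figure D5:**
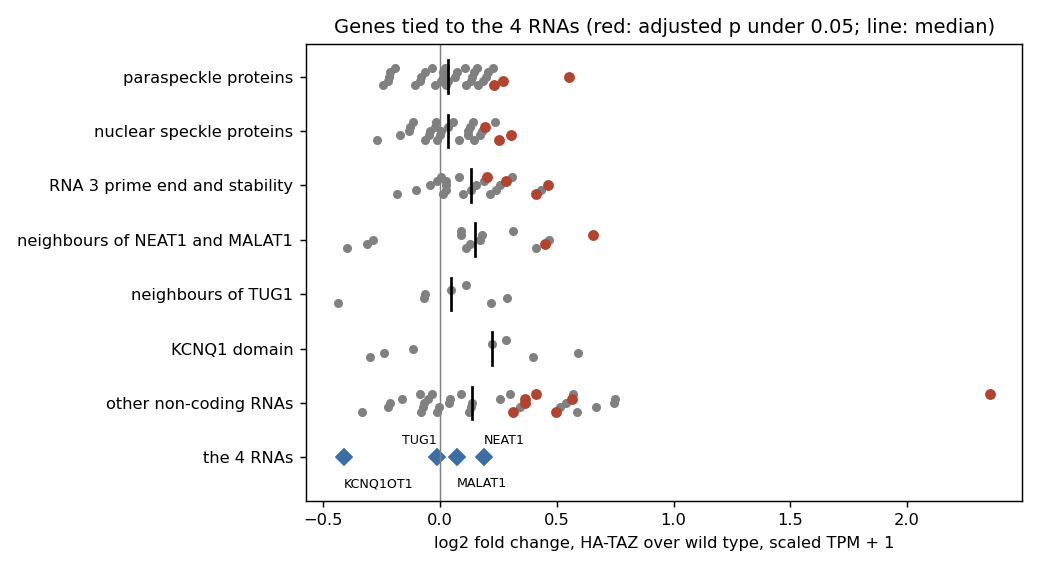
Log2 fold change in scaled TPM of genes tied to the 4 RNAs, HA-TAZ over wild type, with other non-coding RNAs in a separate row. Each point is a gene, red points pass limma at a Benjamini-Hochberg adjusted p of 0.05, and lines mark medians. List medians lie between 0.04 and 0.22 and all flip to negative as deposited. MIR155HG, one of the other non-coding RNAs, stands apart at 2.35, and diamonds mark the 4 RNAs.

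Other non-coding RNAs, listed with earlier results of these data known, are set beside these values. Of 43 listed, 41 were found by symbol and 35 tested, of which 7 rose and 0 fell, beside 4.67% and 2.63% of all genes, with a median of 0.14 (-0.12 as deposited). As deposited 2 of the 35 rose and 7 fell, beside 1.15% and 13.5% of all genes. MIR155HG, the host of miR-155, was at 20.9, 23.6 and 21.0 TPM against 4.15, 4.14 and 4.79 TPM, a log2 fold change of 2.35 in scaled TPM and 2.09 as deposited (limma adjusted p = 0.0011 and 0.0016). LINC00152 rose by 0.57 (limma adjusted p = 0.0061) and by 0.27 as deposited. SNHG16 and SNHG1, hosts of small nucleolar RNAs, rose by 0.41 and 0.36, but were at 0.11 and 0.06 as deposited. MIR155HG and LINC00152 passed in all 6 fits that left out 1 library, SNHG16 in 2 of 6 and SNHG1 in 1 of 6. The most abundant, RPPH1, the RNA of RNase P, was at 0.59 (limma adjusted p = 0.139), and RMRP, the RNA of RNase MRP, at 0.74 (limma adjusted p = 0.0688), without passing. Among all 3656 long non-coding genes tested, 25 rose and 135 fell, with a median of -0.18, while 875 of 11666 protein-coding genes rose and 254 fell, with a median of 0.06. As deposited the balance of protein-coding genes turned, with 180 that rose, 1546 that fell and a median of -0.20, and 8 long non-coding genes rose and 685 fell, with a median of -0.38. With protein-coding factors 529 protein-coding genes rose and 432 fell, and 16 long non-coding genes rose and 180 fell. Against long non-coding genes, the log2 fold changes placed NEAT1 at percentile 91.0, MALAT1 at 82.9, TUG1 at 73.7 and KCNQ1OT1 at 16.8.

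The genes with the most similar pattern over the 6 libraries were found by the root mean square difference of centred log2 scaled TPM, among 8969 candidates with a mean of at least 10, or 8970 for KCNQ1OT1. For NEAT1 these were GYG1 (0.0161), EML2 (0.0163) and CA2 (0.0192), beside a median of 0.147 over candidates. For MALAT1 they were TRMT6 (0.00586), TPM3 (0.00938) and CCNA2 (0.0112), beside 0.136. For TUG1 they were EFCAB14 (0.0134), RAB18 (0.0176) and SAR1A (0.0176), beside 0.151. For KCNQ1OT1 they were ATP9B (0.0219), CDKL1 (0.0344) and AC093642.3 (0.0353), beside 0.291.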

How the data were processed

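Total RNA of KMS27 was measured in 6 libraries, 3 per group. Per the submitters' processing notes, kallisto 0.46.0 and sleuth 0.30.0 were used with GRCh37; the annotation release is not given in the sources used here. The authors deposited TPM per transcript, which sum to 1000000 in each library and carry no depth. The authors also deposited a sleuth table of their comparison with p-values, q-values, effects and mean estimated counts on the natural log scale, per the file headers. The means imply 52795484 estimated counts in a typical library, and depth per library is unknown.

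TPM was summed per gene ID with the symbols in the deposited table. Genes or transcripts with a mean TPM of at least 1 were tested. TPM was divided by median-of-ratios factors over genes above 0 in every library, 0.866, 0.967 and 0.890 in HA-TAZ 1, 2 and 3 and 1.21, 1.09 and 1.06 in control a, b and c. Log2(scaled TPM + 1) was tested with limma 3.58.1 with trend in R 4.3.3, two-sided, with Benjamini-Hochberg adjustment over all features, a threshold of 0.05 and a pseudocount of 1, which understates changes of low genes such as KCNQ1OT1. The fit was also run on simulated data, with changes larger than those of the 4 members in scaled TPM. That run does not show whether changes of their size are detected. Single values were compared by exact two-sided permutation tests. Tables and plots were made with matplotlib 3.10.9, pandas 2.3.3 and numpy 2.4.6 under Python 3.11.15.

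The 4 members and all gene lists were chosen with earlier results of these data known. Named genes are the members, up to 4 called genes and the 2 most abundant of each list, and the 3 most similar genes per member. The direct neighbours with KCNQ1 and CDKN1C are named too. NONO, SFPQ, PSPC1, CD3D and the other KCNQ1 domain genes below the filter fall outside this rule. A gene that this rule names is not reported here. Alternatives were TPM as deposited, protein-coding factors, removal of 7SL and 7SK RNAs, a pseudocount of 0.1, no filter, a minimum of 5, limma without trend, and leaving out each library. Coordinates are not given, since the reference used for sequences, GENCODE release 29, is of another build than the files.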

Additional observations from a re-analysis of the deposited data

How the results depend on the processing

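No paired analysis was possible because the columns of the wild type group carry a name that is in no label, so their numbers cannot be tied to numbered samples. As deposited and without 7SL and 7SK, NEAT1 changed sign to -0.11 and -0.054 and MALAT1 to -0.23 and -0.17 (-0.0020 with protein-coding factors), and KCNQ1OT1 passed at -0.64 in both, so 1 of the 4 genes was called in place of 0. Transcripts that changed sign in these settings were ENST00000501122.2 (-0.26, -0.21; protein-coding factors -0.040), ENST00000534336.1 (-0.26, -0.20; -0.031), ENST00000569149.1 (-0.25, -0.21; -0.060), ENST00000499732.1 (-0.13, -0.078), ENST00000540687.1 (-0.063, -0.019) and ENST00000566220.1 (-0.090, -0.072).

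Leaving out 1 library gave -0.063 to 0.056 for TUG1, -0.012 to 0.083 for ENST00000501122.2, -0.060 to 0.053 for ENST00000519077.3, -0.0088 to 0.079 for ENST00000534336.1, -0.011 to 0.17 for ENST00000566220.1 and -0.050 to 0.056 for ENST00000569149.1. KCNQ1OT1 ran from -0.46 to -0.34, NEAT1 from 0.12 to 0.23 and MALAT1 from 0.027 to 0.12. ENST00000601801.1 ran from 0.22 to 0.60, ENST00000508832.1 from 0.37 to 0.74, ENST00000544868.1 from -0.30 to -0.042, ENST00000602393.1 from -0.23 to -0.072, ENST00000499732.1 from 0.090 to 0.25 and ENST00000540687.1 from 0.12 to 0.25. The log2 ratio differences ran from 0.025 to 0.20 for NEAT1 over MALAT1, 0.10 to 0.27 for NEAT1 over TUG1, 0.058 to 0.13 for MALAT1 over TUG1, and 0.63 to 0.82, 0.51 to 0.74 and 0.43 to 0.68 for NEAT1, MALAT1 and TUG1 over KCNQ1OT1. Shares moved between -1.30 and 0.548 percentage points for ENST00000499732.1, -0.618 and 1.02 for ENST00000519077.3, and -0.579 and 1.03 for ENST00000569149.1.

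Genes called numbered 1652, and 3329 as deposited, 3160 without 7SL and 7SK, 691 without a filter, 758 without trend and 118 to 470 with 1 library left out. Of those called, 1057 rose in scaled TPM, 660 of 1519 with protein-coding factors, 329 of 3160 without 7SL and 7SK and 261 of 3329 as deposited. Transcripts called numbered 307, and 120 as deposited, 186 without 7SL and 7SK, 108 without a filter, 1655 at a minimum of 5, 156 without trend and 12 to 114 with 1 library left out. List genes that rose numbered 19, and 4 as deposited, 9 with protein-coding factors, 4 without 7SL and 7SK, 4 without a filter, 30 at a minimum of 5, 5 without trend and 2 to 5 with 1 library left out. List genes that fell numbered 0, and 14 as deposited and 12 without 7SL and 7SK. The cause was not tested. TPM without depth limits the low transcripts of TUG1.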

Other observations

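Other long unspliced non-coding RNAs were described as a set chosen after the values were seen, with no test. Of 16 other single-exon non-coding transcripts of at least 5000 bases with the same version in GENCODE release 29, all 16 had a negative log2 fold change in scaled TPM, from -0.47 to -0.07 with a median of -0.31. KCNQ1OT1, at -0.41, lay inside this range. The long NEAT1 transcript ENST00000501122.2 and the full-length MALAT1 transcript ENST00000534336.1, also single exons, were at 0.03 and 0.04 and lay above all 16. As deposited they were at -0.26 and -0.26, and the 16 ran from -0.73 to -0.27, so they lay above all 16 there too. By limma 0 of the 16 passed and 9 had an unadjusted p under 0.05, beside 24.1% of all transcripts. The authors' deposited table gave 9 a q under 0.05 with a negative effect and 0 with a positive one. Of all 109487 transcripts with statistics there, 5.68% had a q under 0.05 in either direction, and 1.6% with a negative effect. Those shares have no minimum of TPM or length, unlike the 16, so they are not a matched background.

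Transcripts annotated as retained introns had a median log2 fold change of -0.12 in scaled TPM over 6570 tested, and 67.3% of them were negative, beside -0.02 and 52.1% for all transcripts tested. As deposited the medians were -0.32 and -0.23.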
